A study of Rattus norvegicus with 9 samples.

Results

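The genes of MHC class II antigen presentation were followed in the superior mesenteric artery (SMA) of the rat during ischemia. The members are 8 of the 37203 gene rows of the deposited table and were chosen by symbol: the classical class II chains RT1-Da, RT1-Db1, RT1-Ba and RT1-Bb, the peptide exchange chains RT1-DMa and RT1-DMb, the invariant chain Cd74 and the class II transactivator Ciita. All 8 symbols were present, and 6 of them passed the low-count filter that left 15482 genes for testing. RT1-DMa and RT1-DMb did not pass.

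Arteries came from Sprague-Dawley rats aged 8 weeks. There were 9 libraries in 3 groups of 3, taken from normal rats, from rats after 1 h of ischemia and from rats after 4 h of ischemia. In the ischemia groups blood was let from a femoral artery, so the whole animal and not the SMA alone was deprived of blood flow. The labels give no genetic change, drug or other agent in any group. The methods of the study do give pentobarbital anaesthesia and catheters in the femoral arteries for the ischemia model. They do not say whether normal rats were anaesthetized or operated on. Against normal arteries, anaesthesia, surgery and blood loss therefore cannot be told apart. They describe pieces of whole artery, so every cell type of the wall, of the attached fat and nerve and of blood or lymphoid tissue left on the vessel could add RNA. The series text gives 3 rats per group, but the labels do not say outright that each library is a separate rat, and p-values measure the spread between these libraries. In bulk tissue, fewer cells of a type and less RNA per cell cannot be told apart.

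MHC class II molecules are surface proteins that show peptides from ingested material to CD4 T cells. An alpha and a beta chain pair in the endoplasmic reticulum around the invariant chain, which guides them to endosomes, where the DM heterodimer helps exchange the last fragment of the invariant chain for a peptide. In the rat the RT1-D chains correspond to human HLA-DR and the RT1-B chains to HLA-DQ. Dendritic cells, B cells and macrophages carry class II without stimulation, while endothelial and smooth muscle cells can be brought to express it by interferon gamma. Ciita does not bind DNA itself. It is recruited to a promoter module of X and Y boxes by a complex of RFX, CREB and NF-Y proteins, and its own level is known as the main switch of the class II genes.

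The promoter module is shown first, because it is what Ciita acts on. Sequences are from RefSeq with the GRCr8 assembly, and 6 of the 8 members had a promoter entry, covering 250 bases before to 50 after the gene start. The windows below are 70 bases long, are written in the direction of the gene and mark in capitals an X box written as GNNACNGAT and a Y box written as ATTGG.
RT1-Da, chr20:4515311-4515380, plus strand: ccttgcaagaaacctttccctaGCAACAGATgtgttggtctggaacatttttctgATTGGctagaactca
RT1-Db1, chr20:4560228-4560297, minus strand: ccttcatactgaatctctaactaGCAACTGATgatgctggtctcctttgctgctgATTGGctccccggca
RT1-Ba, chr20:4576959-4577028, plus strand: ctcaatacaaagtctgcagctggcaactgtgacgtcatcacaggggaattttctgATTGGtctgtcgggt
RT1-Bb, chr20:4604165-4604234, minus strand: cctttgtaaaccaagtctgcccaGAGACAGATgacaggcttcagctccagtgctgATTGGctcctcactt
RT1-DMa, chr20:4712385-4712454, minus strand: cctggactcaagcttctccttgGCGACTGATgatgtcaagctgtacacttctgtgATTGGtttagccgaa

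The letters of the X box were chosen after these promoters had been read, so the counts describe the match and test nothing. An X box followed by a Y box, with 20 to 40 bases from the start of one to the start of the other, was present in 4 of the 6 members with an entry, RT1-Da, RT1-Db1, RT1-Bb and RT1-DMa. In RT1-Da the X box began at position -82 and the Y box at -49 relative to the gene start, and in RT1-Db1 they began at -112 and -80. RT1-Ba had the Y box at -43 and no X box in these letters, and Cd74 had no X box and a Y box on the opposite strand only. Both strands of 33469 promoters of the same length were searched. The X box was in 7.83% of them, the Y box in 37.5%, both anywhere in 3.29% and the spaced pair in 0.149%. On the gene strand alone, as the pair was counted in the class II genes, it was in 0.0807%. The spaced pair was also in 2 of the 4 other class II genes examined, RT1-Db2 and RT1-DOb. No match here says only that these letters are not in the window. Of the members, 6 lie together on chromosome 20, with Ciita on chromosome 10 and Cd74 on chromosome 18.

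Transcripts of the 6 tested members were found in all 9 libraries, and levels within a group were up to 26.3-fold apart. Levels are given as CPM, read counts scaled to a common library size by the TMM method, and can be compared between libraries for a gene but not between genes, because transcript length is not corrected. Total counts ran from 13114273 to 15504240 per library, so 1 CPM stood for 12.1 to 17.9 counts. Every group of values below is in the order of replicates 1, 2 and 3.

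RT1-Da, the alpha chain of the RT1-D molecule, was at 45.5, 5.69 and 12.3 CPM in the normal arteries, 29.4, 15.4 and 63.6 CPM at 1 h and 6.78, 15.4 and 21.7 CPM at 4 h. Normal replicate 1 and replicate 3 at 1 h were the highest libraries and the 3 groups overlapped. The group levels were 21.2 ± 21.3 CPM (SD, n = 3), 36.1 ± 24.8 CPM and 14.6 ± 7.5 CPM, so that in the normal group the SD was as large as the mean.

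RT1-Db1, the beta chain that pairs with RT1-Da, was at 16.7, 1.31 and 1.62 CPM in normal arteries, 8.36, 1.94 and 8.42 CPM at 1 h and 1.32, 2.82 and 12 CPM at 4 h. It was high in 1 normal library, in 2 libraries at 1 h and in 1 at 4 h, and the groups overlapped throughout. Of all members tested it had the group means closest together, 6.54 ± 8.79, 6.24 ± 3.72 and 5.36 ± 5.75 CPM (SD, n = 3 each).

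RT1-Ba, the alpha chain of the RT1-B molecule, was at 13.4, 0.511 and 5.47 CPM in normal arteries, 6.02, 4.75 and 26.7 CPM at 1 h and 1.16, 3.48 and 17.8 CPM at 4 h. Its beta chain RT1-Bb was at 24.6, 0.949 and 10.5 CPM, 15.7, 12.6 and 49.6 CPM, and 2.81, 4.56 and 17.6 CPM in the same order. Both chains were lowest in normal replicate 2, where RT1-Ba had 7 counts and RT1-Bb had 13, and highest in replicate 3 at 1 h. Their highest and lowest libraries were 52.3-fold apart for each chain, against 11.2-fold for RT1-Da and 12.7-fold for RT1-Db1.

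Cd74, the invariant chain, had the most counts of the 8 members, 8791 over the 9 libraries. It was at 138, 13.2 and 30.7 CPM in normal arteries, 73.4, 39 and 164 CPM at 1 h and 13.2, 32.6 and 55.4 CPM at 4 h. Normal replicate 2 and replicate 1 at 4 h were equal to 3 digits and the lowest, and the spread over all libraries was 12.4-fold. Group levels were 60.5 ± 67.3 CPM (SD, n = 3), 92 ± 64.4 CPM and 33.7 ± 21.1 CPM.

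Ciita was at 3.47, 0.219 and 0.369 CPM in normal arteries, 1.61, 0.668 and 5.28 CPM at 1 h and 0.0827, 0.249 and 0.462 CPM at 4 h. These levels rested on 62, 3 and 5 counts, 24, 10 and 86 counts, and 1, 3 and 7 counts. All 3 libraries at 4 h lay below all 3 at 1 h, while the normal group overlapped both. From its highest to its lowest library the ratio was 63.9, with an exact 95% counting interval of 11.2 to 2550 because the lowest library had 1 count. Group levels were 1.35 ± 1.84 CPM (SD, n = 3), 2.52 ± 2.44 CPM and 0.265 ± 0.19 CPM.

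**Figure D1:**
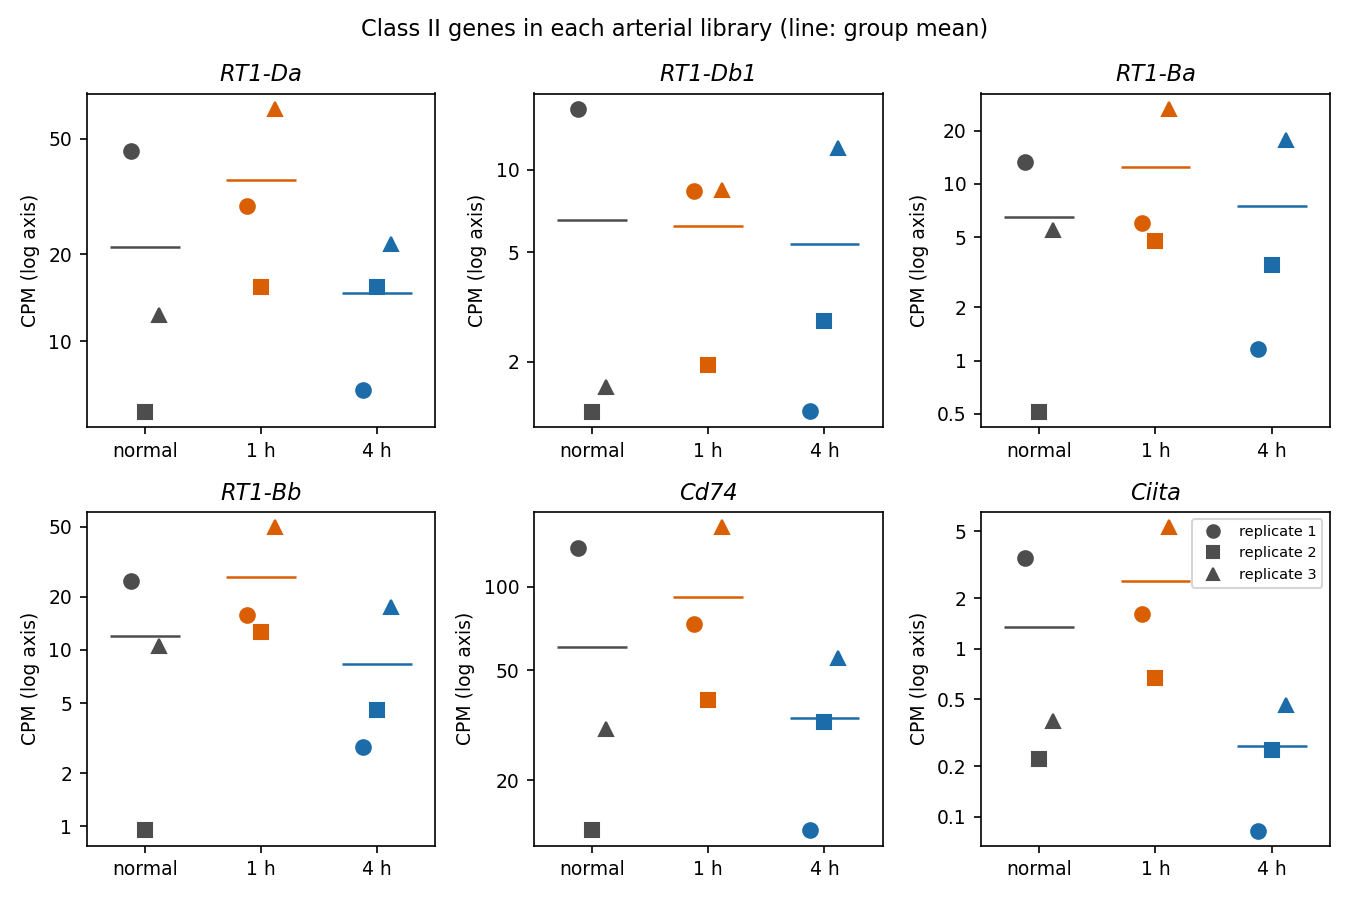
Level of the 6 tested class II genes in each library, in CPM on a log axis, with groups on the x axis, symbols for replicates and a line at each group mean. Normal replicate 1 and replicate 3 at 1 h are among the 3 highest libraries in all 6 genes. In Ciita the 4 h libraries lie below the 1 h libraries without overlap.

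The DM chains were close to absent from the table. RT1-DMa had 5 counts in 3 of the 9 libraries, with an exact 95% Poisson interval of 1.62 to 11.7. RT1-DMb had 22 counts in 4 libraries, with an interval of 13.8 to 33.3, and at most 9 in a library. For every 100 counts of Cd74 there were 0.0569 of RT1-DMa and 0.25 of RT1-DMb, although transcripts of different length give different counts at equal number. The genome build and annotation behind the table are not given in the sources used here, so how reads of these genes were assigned was not tested. With no filter on low counts, edgeR's adjusted p was 0.599 for RT1-DMa and 0.743 for RT1-DMb at 1 h against normal and 0.703 or more in the other contrasts.

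Against normal arteries, none of the 6 tested members was called at 1 h or at 4 h, where a call needed an adjusted p under 0.05 and a fold change over 1.5. The background was low as well, since 0.0581% of the 15482 genes were called at 1 h and 0.0904% at 4 h. At 1 h the fitted log2 fold change was 0.77 for RT1-Da (SE 0.81), -0.07 for RT1-Db1 (SE 1.14), 0.94 for RT1-Ba (SE 1.25), 1.11 for RT1-Bb (SE 1.08), 0.60 for Cd74 (SE 0.90) and 0.88 for Ciita (SE 1.12). By edgeR's quasi-likelihood test the adjusted p-values of these 6 genes ran from 0.588 for RT1-Bb to 0.978 for RT1-Db1. The median of the members was 0.82, with 5 of 6 above 0, against a median of -0.0076 and 49.4% above 0 for all genes. Since most changes were smaller than their own SE, the positive median is a description of correlated genes in the same 6 libraries. At an unadjusted p under 0.05, 0 of 6 members passed at 1 h, where 16.7% of all genes did. In no member did the 1 h and normal groups separate, which 12.8% of all genes did with the 1 h group higher and 13.5% with it lower.

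At 4 h against normal the fitted log2 fold change was -0.53 for RT1-Da (SE 0.81), -0.29 for RT1-Db1 (SE 1.15), 0.21 for RT1-Ba (SE 1.24), -0.53 for RT1-Bb (SE 1.08), -0.84 for Cd74 (SE 0.90) and -2.31 for Ciita (SE 1.24). The median was -0.53 with 1 of 6 above 0, beside 0.027 and 52.3% for all genes. Ciita had the smallest adjusted p of the 6, 0.489 in edgeR, with an unadjusted p of 0.0992. No member passed the unadjusted threshold, which 12.4% of all genes did. Nor did the groups separate for a member, against 7.93% of all genes with the 4 h group higher and 10.8% with it lower.

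From 1 h to 4 h all 6 fitted values were below 0, but the normal rats do not enter this contrast and the 3 libraries at 1 h include the one with the highest class II level. The log2 fold change was -1.30 for RT1-Da (SE 0.82), -0.21 for RT1-Db1 (SE 1.15), -0.73 for RT1-Ba (SE 1.24), -1.64 for RT1-Bb (SE 1.10), -1.45 for Cd74 (SE 0.91) and -3.18 for Ciita (SE 1.26). The median was -1.37, beside -0.04 and 46.4% above 0 for all genes. No gene of the table was called in this contrast (0%), and the members' adjusted p-values in edgeR were 0.856 or more. Ciita passed at the unadjusted p of 0.0348, as 2.58% of all genes did, and was the only member of the 6 tested whose groups did not overlap. With 1, 3 and 7 counts at 4 h, Ciita passed the low-count filter only through normal and 1 h libraries in which it was high. Such a filter favours this separation, so the unadjusted p and the lack of overlap are descriptions only. Of all genes, 3.04% separated with the 4 h group lower and 3.2% with it higher. Without replicate 3 at 1 h, the Ciita value was -2.01 with an unadjusted p of 0.148 in edgeR, and without replicate 1 or replicate 2 at 4 h it was -2.81 or -3.13, with adjusted p-values of 1 and 0.993 and neither below 0.05 unadjusted.

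Taking the 3 groups together, 0 of 6 members were called, as against 0.0388% of all genes, and 0 passed the unadjusted threshold that 11.4% of all genes passed. The adjusted p in edgeR was 0.494 for Ciita and between 0.611 and 0.983 for the other tested members. An exact two-sided permutation test of the 3 groups over all 1680 arrangements, for which the smallest p is 0.00357, gave an unadjusted p of 0.175 for Ciita, 0.407 for Cd74, 0.425 for RT1-Bb, 0.429 for RT1-Da, 0.654 for RT1-Ba and 0.918 for RT1-Db1. The biological coefficient of variation across the table was 51.6%.

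**Figure D2:**
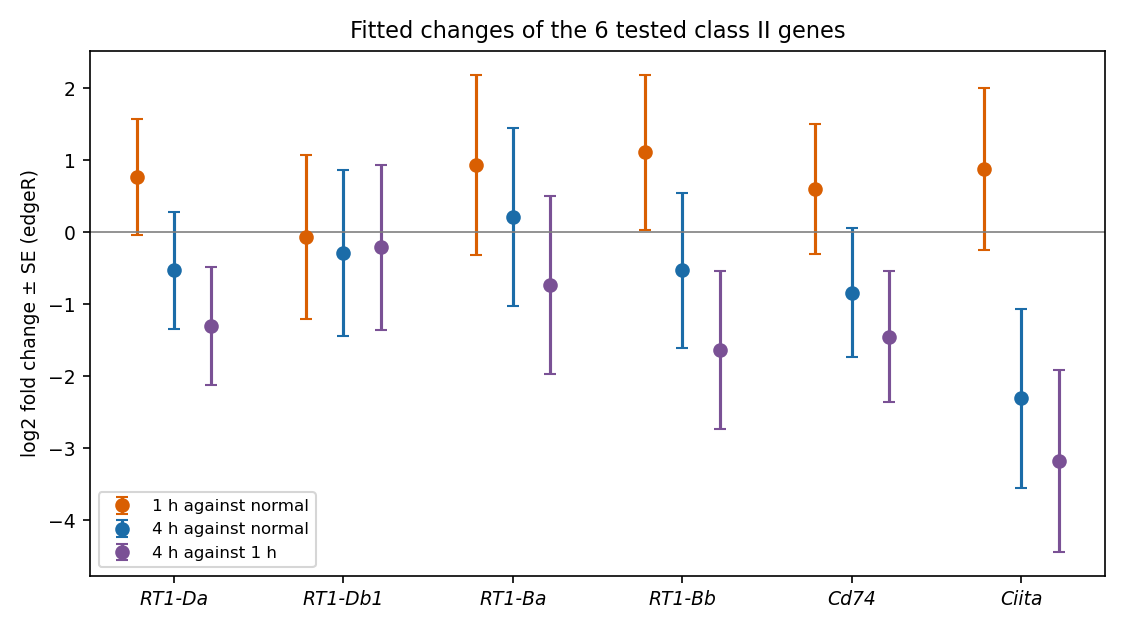
Fitted log2 fold change of the 6 tested genes with its standard error as the bar, for 1 h against normal, 4 h against normal and 4 h against 1 h (edgeR). Most bars of the first 5 genes cross or come close to 0, and Ciita at 4 h against 1 h lies at -3.18 with an SE of 1.26.

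Although the groups did not differ by the test, the members moved together from library to library. On the log2 CPM scale the Pearson correlation between a pair of the 6 members ran from 0.762 for RT1-Ba with Ciita to 0.995 for RT1-Da with Cd74 over the 9 libraries, which share library composition and, for both chains of a molecule, the genomic region. RT1-Da was at 33.1 to 51.2 counts per 100 counts of Cd74, a range of 1.55-fold, while each gene alone varied more than 11-fold.

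The other chains kept looser ratios to Cd74. Per 100 counts of Cd74, RT1-Bb ran from 7.18 to 34.1, RT1-Ba from 3.87 to 32.2 and RT1-Db1 from 4.97 to 21.6. Replicate 3 at 4 h had the highest ratios of RT1-Ba and RT1-Db1, 32.2 and 21.6, and normal replicate 2 the lowest of RT1-Ba and RT1-Bb. Exact permutation tests of these ratios over the 3 groups gave p-values of 0.243 for RT1-Da, 0.361 for RT1-Db1, 0.657 for RT1-Ba and 0.514 for RT1-Bb.

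Partner chains also changed against each other. RT1-Db1 was at 36.7, 23.1 and 13.2 counts per 100 of RT1-Da in normal arteries, 28.4, 12.6 and 13.2 at 1 h and 19.5, 18.3 and 55 at 4 h. RT1-Bb was at 183, 186 and 192 per 100 of RT1-Ba in normal arteries, 261, 266 and 186 at 1 h and 243, 131 and 98.9 at 4 h. Both ratios ranged widely over the libraries, and the RT1-B ratio of normal replicate 2 rests on 13 and 7 counts. RT1 genes are polymorphic and RT1-Db1 has the close copy RT1-Db2, which had 10 counts in normal replicate 1, 7 in replicate 3 at 1 h and at most 1 elsewhere. Reads shared with such copies, or lost where a Sprague-Dawley allele differs from the reference, make levels and ratios of these chains uncertain.

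Ciita had its lowest ratios to Cd74, a gene it acts on, at 4 h. Per 100 counts of Cd74 it was at 2.52, 1.66 and 1.2 in normal arteries, 2.19, 1.72 and 3.23 at 1 h and 0.625, 0.763 and 0.834 at 4 h. All 3 libraries at 4 h were below the other 6. Summed over libraries, the groups had 70, 120 and 11 counts of Ciita, or 2.29 per 100 of Cd74 (95% Poisson interval 1.79 to 2.89), 2.76 (2.29 to 3.3) and 0.79 (0.394 to 1.41). These intervals cover counting error only, and 1 library gave most counts of each group. Normal replicate 1 gave 62 of the 70 Ciita and 2458 of the 3055 Cd74 counts. Replicate 3 at 1 h gave 86 of 120 and 2664 of 4344. The summed normal ratio therefore says little about the other normal libraries, at 1.66 (0.342 to 4.84) and 1.2 (0.39 to 2.8). Both of these intervals overlapped the summed one at 4 h. Among single libraries, only normal replicate 1 and replicate 3 at 1 h had intervals above that of any library at 4 h. With 1 count, replicate 1 at 4 h allowed 0.0158 to 3.48. The exact permutation test over the 3 groups gave p = 0.0143, and p = 0.05 after adjustment over the 7 ratios examined in this way, which is not below the threshold of 0.05. Leaving out a library in turn gave unadjusted exact p-values from 0.00714 to 0.0429. As said above, Ciita passed the low-count filter only through normal and 1 h libraries in which it was high, which favours low ratios at 4 h. The p-values of this ratio are therefore descriptions only. The ratio was examined after the counts had been seen. Ratios of members to other gene lists and between partner chains were also looked at, and the adjustment over 7 ratios does not cover them.

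**Figure D3:**
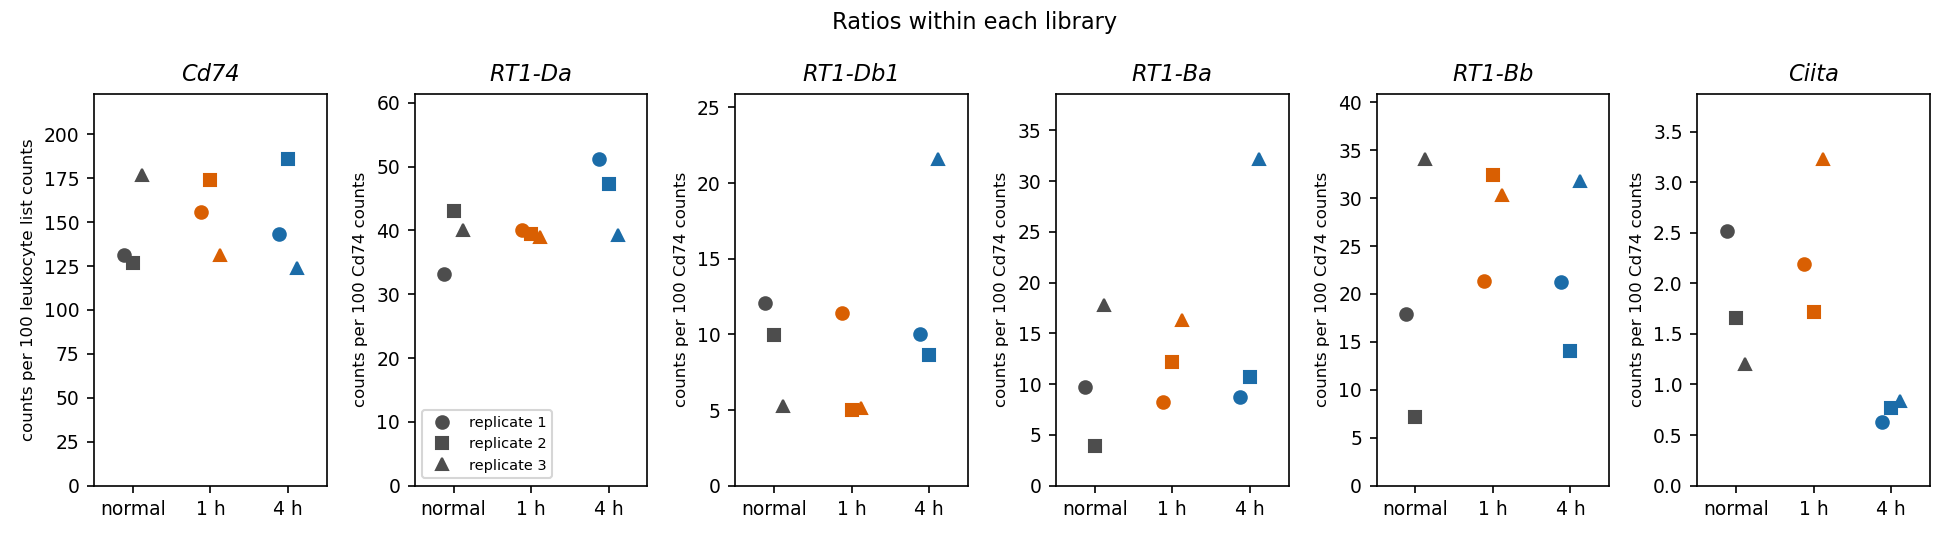
Ratios within each library, as counts per 100 counts of the general leukocyte list for Cd74 in the first panel and per 100 counts of Cd74 for 5 genes in the others, by group, with symbols for replicates and linear axes from 0. RT1-Da stays between 33.1 and 51.2, and the 3 libraries at 4 h have the lowest Ciita ratios, 0.625 to 0.834.

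The summed level of general leukocyte genes moved with Cd74. A list of 8 general leukocyte genes, which includes Ptprc (CD45), Laptm5, Coro1a, Tyrobp and Itgb2, summed to 105, 10.4 and 17.4 CPM in normal arteries, 47, 22.4 and 125 CPM at 1 h and 9.26, 17.5 and 44.8 CPM at 4 h. The order of the libraries was close to that of Cd74. Cd74 was at 131, 127 and 177 counts per 100 of this list in normal arteries, 156, 174 and 131 at 1 h and 143, 186 and 124 at 4 h, a range of 1.51-fold, with an exact permutation p of 0.907 over the groups. Against the summed counts of single cell type lists Cd74 varied far more. The range was 7.23-fold for dendritic cells, 12.2-fold for macrophages, 15.4-fold for endothelium and 17-fold for B cells, beside 12.4-fold for Cd74 itself. In such sums the genes of a list do not count alike. The B cell list had 379 counts in normal replicate 1, 847 in replicate 3 at 1 h and only 3 to 29 in the others. Ratios to it are uncertain, and its wide range does not show whether Cd74 follows B cells.

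That narrow range rested in part on Coro1a. Coro1a codes for an actin-binding protein of leukocytes that is also made by neurons. It gave 52.6% of the list's counts in replicate 1 at 1 h, 48.6% in replicate 3 at 4 h and 25.8% in replicate 3 at 1 h, the 3 libraries with the highest nerve markers, and 3.79% to 19.4% in the others. Without it, Cd74 ran from 144 to 329 per 100, a range of 2.29-fold. Leaving out any other gene of the list gave ranges of 1.5-fold to 2.14-fold, against 12.4-fold for the level of Cd74 itself.

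Ciita had its lowest ratios to the same list at 4 h. It was at 3.29, 2.11 and 2.13 counts per 100 of the list in normal arteries, 3.42, 2.99 and 4.22 at 1 h and 0.893, 1.42 and 1.03 at 4 h. The exact permutation test gave p = 0.00714, and 0.05 after adjustment over the 7 ratios, which is not below the threshold. Those 7 leave out the ratios to single cell type lists given below. The limit from the low-count filter holds for this ratio of Ciita as well, so its p-value is a description only. Without Coro1a the highest library at 4 h was at 2.01 and the lowest of the others at 2.33, so the groups stayed apart by less. Against the markers of single cell types, 4 h was not set apart from normal arteries. Per 100 counts of the B cell list Ciita was at 16.4 to 42.9 in normal arteries, 10.2 to 82.8 at 1 h and 25 to 43.8 at 4 h. At 4 h this list had 3, 12 and 16 counts, so its overlap with normal arteries decides little. Against the macrophage, dendritic and endothelial lists the 4 h ratios also overlapped those of normal arteries, but lay below those at 1 h. The highest at 4 h and lowest at 1 h were 0.164 and 0.182 for macrophages, 0.487 and 0.608 for dendritic cells and 0.0574 and 0.0719 for endothelium. These gaps rest on the same few Ciita counts at 4 h and were not tested.

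B cell markers stood out in 2 libraries, normal replicate 1 and replicate 3 at 1 h. The 8 B cell genes summed to 21.2 and 52 CPM there and to 0.248 to 2.07 CPM in the other 7. Cr2, the complement receptor of B cells and follicular dendritic cells, was at 3.36 and 15 CPM in these libraries against at most 0.443 CPM elsewhere, and Glycam1, of the high endothelial venules of lymph nodes, at 1.34 and 7.62 CPM against at most 0.0669 CPM. The other lymph node genes did not all mark these libraries: Ccl21, a chemokine of lymph node stroma and lymphatic vessels, was at 209 and 103 CPM there, at 410 CPM in replicate 1 at 4 h and below every normal artery in all 3 libraries at 1 h. The summed lymph node list was at 233 and 168 CPM in the 2 libraries and highest, at 415 CPM, in replicate 1 at 4 h. Cd79a, a defining B cell gene, was at 0 in all 9 libraries. The same 2 libraries had the highest Cd74 and Ciita, so lymphoid tissue on the vessel and class II in the wall cannot be told apart in them.

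RT1-DOa and RT1-DOb, the chains of the DO molecule that restrains DM and is typical of B cells, were high in the libraries with B cell markers. RT1-DOa was at 3.92, 0.146 and 0.222 CPM in normal arteries, 0.736, 0.401 and 6.21 CPM at 1 h and 0, 0.249 and 0.066 CPM at 4 h. RT1-DOb had its highest levels in the same 2 libraries, 2.41 and 7.68 CPM, and lay between 0 and 1.07 CPM in the other 7. At 4 h against 1 h the log2 fold change was -4.46 for RT1-DOa (SE 1.77, edgeR adjusted p = 0.856) and -3.36 for RT1-DOb (SE 1.73, adjusted p = 0.856). RT1-DOa was at 0 in a library at 4 h and its fitted value depends on the prior count. Over the 4 h libraries together RT1-DOa had 4 counts and RT1-DOb had 11. Both passed the low-count filter only through normal and 1 h libraries in which they were high, so these fold changes are descriptions only. RT1-Db2 and RT1-Ha were too low to test.

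With these 2 libraries left out, the remaining 7 gave no call for a member in a contrast, and Ciita no longer passed the filter. Cd74 then stood at 13.2 and 30.7 CPM in normal arteries, 73.4 and 39 CPM at 1 h and 13.2, 32.6 and 55.4 CPM at 4 h. In these libraries both arteries at 1 h were above both normal arteries, while those at 4 h overlapped both groups. The libraries were left out after seeing the data, and the share of all genes that separated in this way was not counted. No rise is read from these values.

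The summed level of macrophage genes did not follow Cd74. The 13 macrophage genes in the table summed to 163 to 259 CPM in normal arteries, 162 to 366 CPM at 1 h and 209 to 305 CPM at 4 h, and Cd74 varied 12.2-fold against them. The sum was carried in part by Lyve1. As a mean of log2 CPM, in which each gene counts alike, the same list was highest in normal replicate 1 at 4.10 and replicate 3 at 1 h at 3.97, and lowest in replicate 1 at 4 h at 2.56 and normal replicate 2 at 2.87, the libraries in which Cd74 was highest and lowest. Csf1r, the receptor for the macrophage growth factor M-CSF, was at 29.8, 8.9 and 17.1 CPM in normal arteries, 9.83, 10.1 and 24.3 CPM at 1 h and 3.31, 7.71 and 14.5 CPM at 4 h. Lyve1, which lymphatic endothelium also makes, was at 51.1 to 76.8 CPM in normal arteries and 96.5 to 213 CPM at 4 h. The dendritic cell list summed to 46.9 to 77.7 CPM, 110 to 138 CPM and 51.7 to 94.8 CPM in the 3 groups. As a mean of log2 CPM the dendritic list was highest in replicate 3 at 1 h at 2.69 and normal replicate 1 at 2.31. It was lowest in normal replicate 2 at 0.82 and replicate 1 at 4 h at 1.01. The 8 endothelial genes summed to 629 to 1490 CPM, 568 to 930 CPM and 452 to 805 CPM in the 3 groups.

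T cell genes were low, with 8 genes summing to 1.49 to 19.3 CPM and most in normal replicate 1. The 8 neutrophil genes summed to at most 3.13 CPM. Smooth muscle genes ran the other way to Cd74, from 10400 CPM in normal replicate 1 and 11900 CPM in replicate 3 at 1 h to 65400 CPM in replicate 1 at 4 h. The 16 nerve genes summed to 84.2 to 2670 CPM in normal arteries, 1850 to 8900 CPM at 1 h and 228 to 8840 CPM at 4 h. The 8 adipocyte genes summed to 720 to 2540 CPM, the 8 exocrine pancreas genes to 4.48 to 167 CPM, the 8 gut epithelium genes to 1.2 to 28.7 CPM and the 8 lymph node stroma genes to 88.6 to 415 CPM, the last mostly from Ccl21. The part of these tissues in the class II levels was not tested beyond the fits with a tissue score.

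**Figure D4:**
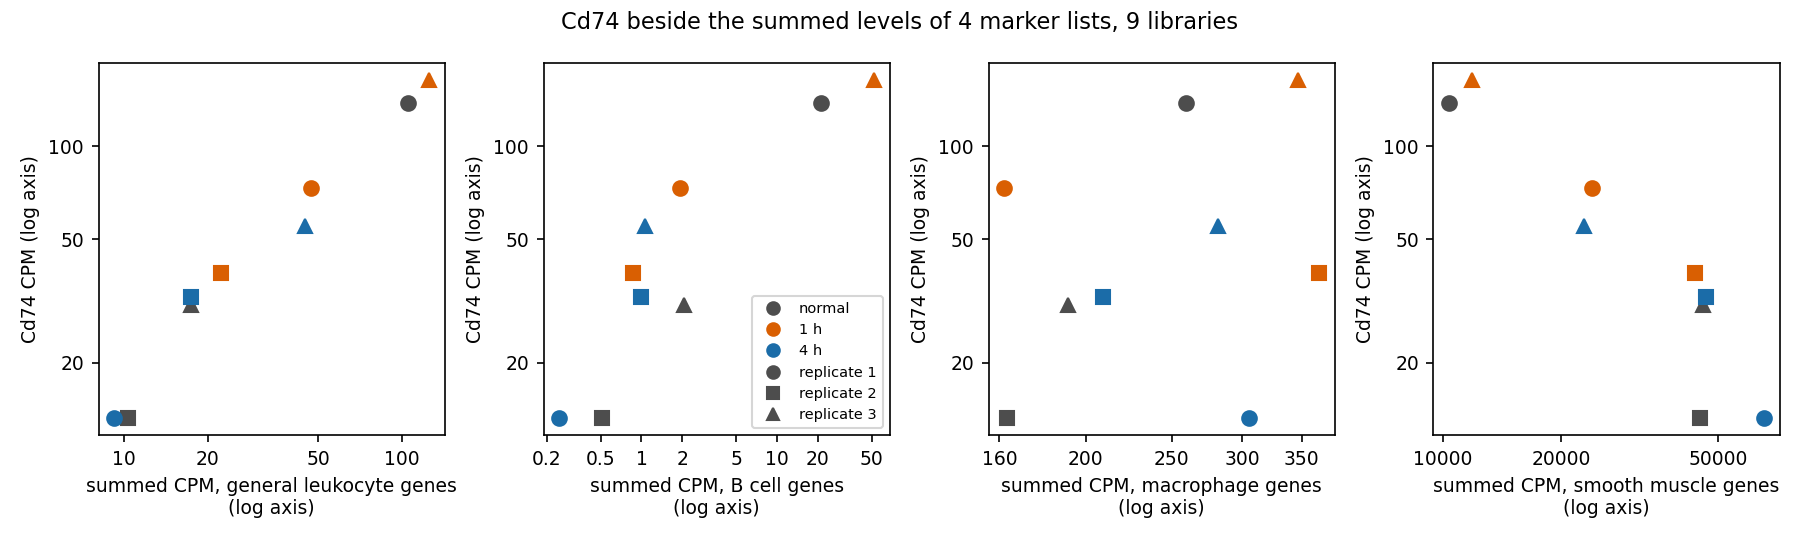
Cd74 level (CPM, log axis) against the summed level of general leukocyte, B cell, macrophage and smooth muscle genes (CPM, log axes) in 9 libraries, coloured by group with symbols for replicates. Cd74 rises with the leukocyte list from 13.2 to 164 CPM and falls as smooth muscle genes rise, while the summed macrophage list shows no single line.

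Among the 10 tested genes whose log2 CPM profile was most like that of the members over the 9 libraries were Lyz2 (Pearson r = 0.981), Pc (0.977), Creg1 (0.977), Clec10a (0.971), Prtfdc1 (0.969), Scml4 (0.968), Aig1 (0.966), Slc17a5 (0.964) and Mast3 (0.963). They were ranked on these same libraries and are a description. Lyz2, the lysozyme of macrophages and other myeloid cells, was at 103, 13.1 and 41.5 CPM in normal arteries, 50.6, 32.3 and 111 CPM at 1 h and 13.1, 29.8 and 55.2 CPM at 4 h. Clec10a, a lectin of macrophages and dendritic cells, was at 11.5, 3.07 and 3.99 CPM, 8.63, 7.02 and 13.8 CPM, and 2.48, 4.31 and 8.32 CPM in the same order. Both were highest in the libraries with the most Cd74 and lowest in normal replicate 2 and replicate 1 at 4 h.

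**Figure D5:**
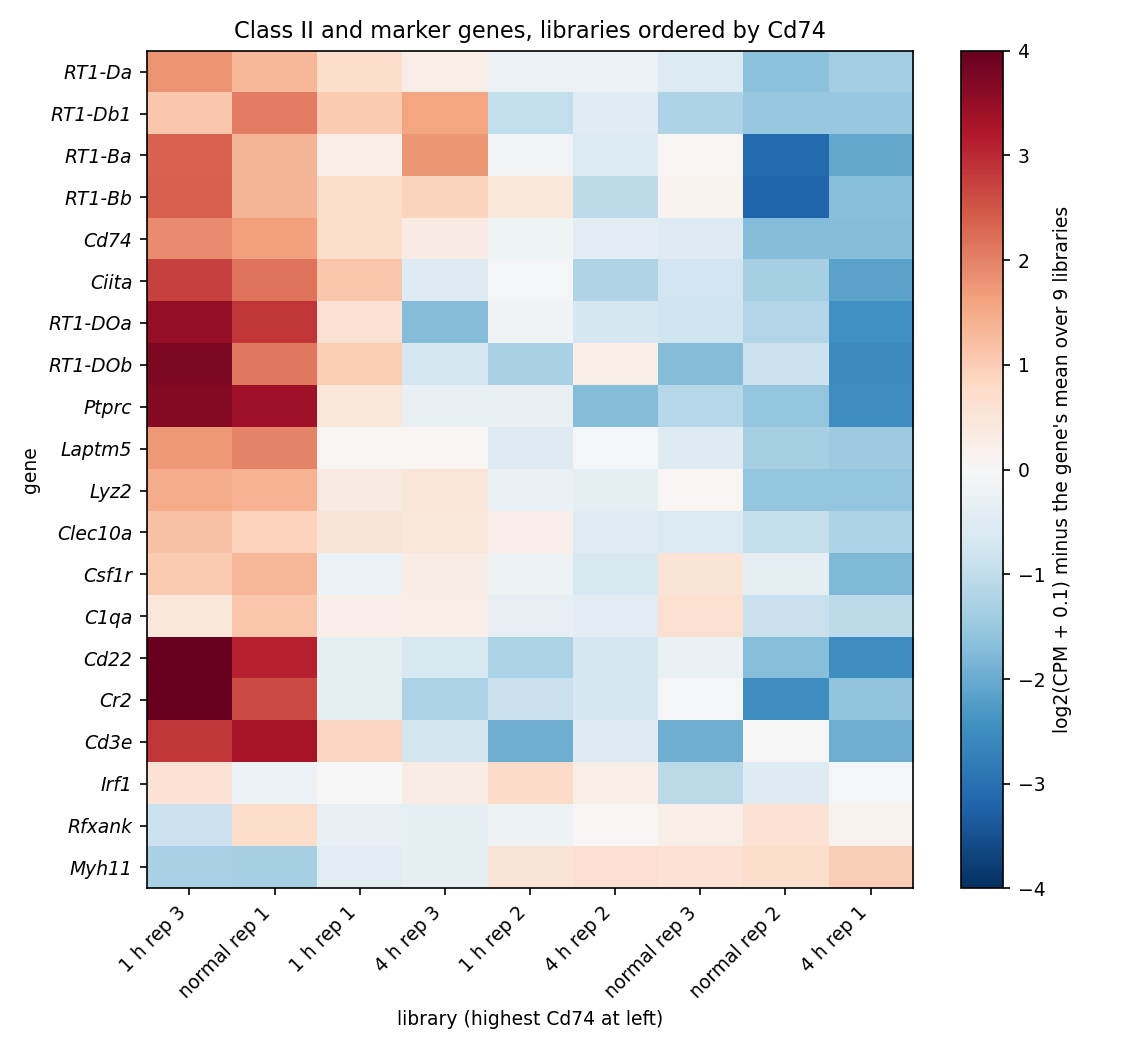
Log2(CPM + 0.1) minus the mean of each gene over 9 libraries, for class II genes, leukocyte and B cell markers, Irf1, Rfxank and Myh11, with libraries ordered from the highest to the lowest Cd74 and colours limited to 4 in each direction. Replicate 3 at 1 h and normal replicate 1 are at the left for class II, Ptprc and B cell genes, and Myh11, a smooth muscle myosin, runs the other way.

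The genes that act on class II promoters and those of the pathway that induces Ciita were examined next. Of 170 genes in the table from 20 further lists, 128 were tested and 0 were called in any contrast by edgeR, and the counts that follow are at an unadjusted p under 0.05, to be read against the shares of all genes given above. Of 6 tested promoter complex genes, 0 passed higher and 2 lower at 1 h, and 0 passed at 4 h against normal or against 1 h. Rfxank, a subunit of the RFX complex, was at 18.3, 16.6 and 13.2 CPM in normal arteries, 8.83, 9.49 and 6.02 CPM at 1 h and 12.2, 11.4 and 8.32 CPM at 4 h. Both ischemia groups lay below the normal group, with a log2 fold change of -0.98 at 1 h (SE 0.26, edgeR adjusted p = 0.218) and -0.59 at 4 h (SE 0.26, adjusted p = 0.407). Rfx5, the DNA-binding subunit, also did not overlap with normal at 1 h, at -0.47 (SE 0.19, adjusted p = 0.29).

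In the path from interferon gamma to Ciita, 4 of 7 tested genes passed higher at 1 h, 1 passed higher at 4 h and 0 passed lower. Ifng itself, the cytokine, was at 0 in 8 libraries and had 0.0668 CPM in replicate 2 at 1 h. At these depths a count of 0 allows a level of up to 0.168 to 0.249 CPM, taking 3 counts as the floor. Irf1, a factor that acts on the Ciita gene, was at 45.4, 37.1 and 25.2 CPM in normal arteries, 54.1, 91.1 and 80.1 CPM at 1 h and 50.7, 62.4 and 65.1 CPM at 4 h. Every ischemic library was above every normal one, with a log2 fold change of 1.06 at 1 h (SE 0.27, edgeR adjusted p = 0.21) and 0.73 at 4 h (SE 0.27, adjusted p = 0.33). Jak1, a kinase of the interferon receptors, was at 182, 169 and 165 CPM in normal arteries, 259, 256 and 258 CPM at 1 h and 198, 211 and 265 CPM at 4 h, or 0.58 on the log2 scale at 1 h (SE 0.18, adjusted p = 0.232). DESeq2 called these 3 genes at 1 h, with adjusted p-values of 0.013 for Irf1, 0.0058 for Jak1 and 0.0262 for Rfxank, in a comparison in which it called 702 genes against 9 by edgeR.

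Among 8 endosomal processing genes, 1 passed higher and 1 lower at 1 h and 0 in the other contrasts. Lgmn, an asparaginyl endopeptidase, was at 0.61 on the log2 scale at 1 h against normal (SE 0.25, edgeR adjusted p = 0.288), and Ifi30, a thiol reductase induced by interferon gamma, at -0.55 (SE 0.23, adjusted p = 0.296). Ctss, the cathepsin that trims the invariant chain, was highest in normal replicate 1 and replicate 3 at 1 h and lowest in replicate 1 at 4 h, at 14.2, 5.04 and 9.09 CPM in normal arteries, 7.69, 5.95 and 12.6 CPM at 1 h and 2.15, 6.05 and 10.8 CPM at 4 h. The 3 tested turnover genes, with March8 and Il10ra, and the 3 tested genes of costimulation and class II binding, with Cd4 and Lag3, had 0 genes past the unadjusted threshold in the 3 contrasts. For these 4 genes the adjusted p over the 3 groups ran from 0.552 for Cd4 to 0.857 for Lag3 (edgeR).

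Class I presentation genes serve nearly all cells. The 14 class I presentation genes summed to 1670 to 2120 CPM in normal arteries, 2330 to 2490 CPM at 1 h and 2170 to 2530 CPM at 4 h, while the 4 classical class II chains summed to 8.47 to 100 CPM, 34.7 to 148 CPM and 12.1 to 69.1 CPM. The class I sum was mostly B2m, Canx, Calr and Pdia3. Of the heavy chains, RT1-A1 ran from 12.9 to 67.3 CPM and RT1-A2 from 20.2 to 107 CPM, and Tap2, a peptide transporter, from 0.165 to 2.41 CPM. At the unadjusted threshold 1 passed higher at 1 h and 2 at 4 h, and 0 passed lower. The genes with the smallest p over the 3 groups were Pdia3, at 0.48 on the log2 scale at 4 h (SE 0.18, edgeR adjusted p = 0.335), and Calr, at 0.63 (SE 0.27, adjusted p = 0.39), which are chaperones of many proteins besides class I. B2m, the light chain of class I, was at 700 to 1050 CPM over all 9 libraries. Nlrc5, the class I relative of Ciita, was at 12.1, 7.37 and 6.2 CPM in normal arteries, 12.5, 9.63 and 15.1 CPM at 1 h and 5.87, 8.21 and 8.32 CPM at 4 h.

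The cell type lists had few genes past the unadjusted threshold and 0 called. Among leukocyte genes in general 0 of 7 passed in a contrast, with Ptprc at -3.19 (SE 1.62) and Cd53 at -1.35 (SE 1.09) on the log2 scale at 4 h against normal. Among 11 tested macrophage genes, 2 passed higher at 1 h, Cd14 among them at 1.13 (SE 0.47, edgeR adjusted p = 0.292), and at 4 h 1 passed higher and 1 lower, the lower being Fcgr1a at -1.62 (SE 0.61, adjusted p = 0.331). From 1 h to 4 h only Cd14 of these 11 passed, at -1.62 (SE 0.48, adjusted p = 0.856). Of 8 dendritic genes, Irf8 passed higher at 1 h at 1.85 (SE 0.52, adjusted p = 0.224) and Zbtb46 lower at 4 h at -0.70 (SE 0.20, adjusted p = 0.218). Of the 2 tested T cell genes, Cd8a passed lower at 4 h against normal at -3.51 (SE 0.96, adjusted p = 0.197), on at most 2.24 CPM, and again from 1 h to 4 h, while Lck did not pass. Endothelial Erg and Tie1 passed lower at 1 h, at -0.61 (SE 0.22, adjusted p = 0.275) and -0.78 (SE 0.33, adjusted p = 0.294), and both passed lower again at 4 h against normal. Of the 8 smooth muscle, 16 nerve, 8 adipocyte and 8 exocrine pancreas genes 0 passed in any contrast, nor did any of the few tested B cell, lymph node, neutrophil and gut genes. Their genes with the smallest p over the 3 groups were Fcrla, Madcam1, Ccl21, S100a9, Lmod1, Des, Lpl, Ucp1, Uchl1, Nefm, Muc2, Epcam, Amy2a3 and Cela1, with adjusted p-values in edgeR from 0.504 for Lpl to 0.716 for Cela1.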

How the data were processed

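The authors deposited whole-number counts per gene symbol for 9 libraries of rat SMA, prepared from Trizol RNA and sequenced on a HiSeq X. The submitters' processing notes name HISAT2. The counting program, genome build, annotation and use of strand are not given in the sources used here, and the methods of the study describe microarrays, which would not give counts. All 37203 rows named a gene, 13156 were at 0 throughout, and no library was a copy of another (lowest chi-square per degree of freedom 29.9). Samples were grouped by their titles.

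Counts were analysed in R 4.3.3 with edgeR 4.0.16: filterByExpr, TMM scaling (factors 0.814 to 1.22), and glmQLFit with glmQLFTest on all 9 libraries with group as the only term. Adjustment was by Benjamini-Hochberg over 15482 genes. A call needed an adjusted p under 0.05 and a fold change over 1.5. The SE is the size of the log2 fold change divided by the square root of F, and log2 CPM used a prior count of 2. The fit was tested on simulated data. Single values and ratios were compared by exact permutation over samples. Alternatives used DESeq2 1.42.0, other scalings, no filter, a replicate block, tissue scores and fewer libraries.

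The members and lists were chosen with earlier results of these data known. The text names every member, the 2 genes of each other list with the smallest p over the 3 groups, and the 10 genes most like the members, of which 1 is not reported here. Coro1a, Laptm5, Tyrobp, Itgb2, Ctss, Ifng, B2m, Canx, RT1-A1, RT1-A2, Tap2, Nlrc5, Csf1r, Lyve1, Cr2, Glycam1, Cd79a and Myh11, and the genes shown only in the heat map, were named after their values were seen.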

Additional observations from a re-analysis of the deposited data

How the results depend on the processing

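At an adjusted p below 0.05, no member was called under any alternative: 18 log2 fold changes were recomputed 355 times, 296 kept their direction and 59 did not. Ciita at 4 h against 1 h was between -3.86 and -0.94 in all of its alternatives. Leaving out a library in turn moved Cd74 from -0.10 to 2.07 at 1 h, -1.40 to 0.62 at 4 h and -2.01 to -0.70 at 4 h against 1 h. The ranges in the same order were -0.25 to 3.06, -2.98 to -0.12 and -3.86 to -2.01 for Ciita, 0.08 to 2, -0.94 to 0.70 and -1.70 to -0.58 for RT1-Da, -0.53 to 2.08, -1.66 to 1.86 and -1.59 to 0.23 for RT1-Db1, -0.27 to 2.06, -1.48 to 1.33 and -2.43 to 0.51 for RT1-Ba, and 0.24 to 2.18, -1.71 to 0.54 and -2.81 to -0.74 for RT1-Bb. Without adjustment, edgeR p-values were below 0.05 for some members under some alternatives. At 4 h against normal these were Cd74 at 0.0414 and RT1-Da at 0.0141 with the B cell and T cell score, and RT1-Bb at 0.0212 and RT1-Ba at 0.00224 (adjusted p = 0.151) with the macrophage score, all higher at 4 h. RT1-Ba was then at 2.19, and at 2.44 with the B cell and T cell score, against 0.21 as reported. At 1 h they were 2 alternatives each for Cd74, Ciita and RT1-Da and 1 each for RT1-Ba and RT1-Bb, and at 4 h against 1 h 11 of 18 for Ciita. The limit from the low-count filter given for Ciita above applies to these 11 too, and they are descriptions only. The scores of tissue content turned directions as follows, and the cause was not tested. With the nerve score, the 1 h values were -0.49 for Cd74, -0.58 for Ciita, -0.75 for RT1-Ba, -0.28 for RT1-Bb and -0.21 for RT1-Da, and at 4 h against 1 h 0.92 for RT1-Ba and 1.25 for RT1-Db1. With the macrophage score, the 4 h values were 0.70 for Cd74, 1.47 for RT1-Bb, 0.83 for RT1-Da and 1.17 for RT1-Db1, with RT1-Db1 at 0.69 at 1 h and 0.48 at 4 h against 1 h, and RT1-Ba at 0.90 there. With the B cell and T cell score, 4 h values were 1.21 for Cd74, 0.44 for Ciita, 1.52 for RT1-Bb, 1.28 for RT1-Da and 2.17 for RT1-Db1, RT1-Db1 was 0.85 at 1 h, and 4 h against 1 h was 0.13 for Cd74, 1.21 for RT1-Ba, 0.18 for RT1-Da and 1.32 for RT1-Db1. With the leukocyte score, chosen after seeing the data, 4 h values were 0.27 for Cd74, 0.32 for RT1-Bb, 0.45 for RT1-Da and 0.95 for RT1-Db1, and 4 h against 1 h was 0.84 for RT1-Ba, 0.05 for RT1-Da and 1.01 for RT1-Db1. With both libraries with B cell markers left out, also chosen after seeing the data, 4 h was 0.59 for Cd74, 0.51 for RT1-Bb, 0.67 for RT1-Da and 1.84 for RT1-Db1, RT1-Db1 was 1.75 at 1 h, and 4 h against 1 h was 0.51 for RT1-Ba and 0.10 for RT1-Db1.

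Counts of genes called over the whole table moved from 9 at 1 h to 702 with DESeq2, 4 with only the groups compared, 17 with the nerve score, 26 with the leukocyte score and 0 without both B cell libraries, and from 0 to 11 leaving out a library. From 14 at 4 h they moved to 610, 4, 107, 64 and 1, to 4 with the B cell and T cell score and 1 to 14 leaving out a library. From 6 for the 3 groups together they moved to 11 with no filter, 669 with DESeq2, 30 and 35 with the nerve and leukocyte scores, 0 without both libraries and 0 to 7 leaving out a library. At 4 h against 1 h 0 genes were called in all alternatives. Ciita gave no value where it no longer passed the filter.

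The labels give nothing that same-numbered libraries share besides the number. Their deviations correlated from -0.651 to 0.66, and not every pair was above 0.1. Such mixed values cannot exclude a shared batch. With the replicate block, calls at 4 h were 7 and for the 3 groups 0, and RT1-Db1 was 0.17 at 1 h, 0.24 at 4 h and 0.07 at 4 h against 1 h.

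Depth limited Ciita, with 1 to 7 counts in 5 of the 9 libraries, and both DM chains, which were not tested.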
